A study of Mus musculus with 28 samples.

Results

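The genes that encode subunits and assembly factors of mitochondrial respiratory complexes I and III were followed across 12 groups of mouse cells. Members were the genes whose symbol begins with Nduf or Uqcr, taken from probe sets that carry 1 gene symbol in the array annotation. Where a gene had several such probe sets, the brightest by its mean across the 28 arrays stood for it. This gave 51 of the 19938 genes on the array, 43 with the Nduf prefix and 8 with the Uqcr prefix.

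Complex I takes electrons from NADH and hands them to ubiquinone, and complex III passes them from ubiquinol to cytochrome c; both move protons across the inner mitochondrial membrane. Complex I has an NADH-oxidising N module, a quinone-reducing Q module and a proton-pumping membrane arm, and dedicated assembly factors put it together. Neurons depend heavily on this chain for ATP, and stem cells that turn into neurons are known to move from glycolysis towards oxidative phosphorylation.

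Total RNA was hybridised to whole-transcript expression arrays, and the deposited values were log2 signals. All cells were of strain 129SvEv. Embryonic stem (ES) cells, neuronal progenitor (NP) cells and their derivatives labelled TN day 2 and TN day 6 were wild type or Top2β knockout, with 2 arrays per group at ES, NP and TN day 2 and 3 arrays per group at TN day 6; TN is not spelled out. Top2β is the topoisomerase that cuts and reseals DNA strands in postmitotic cells. In cells at TN day 5, ICRF-193, which inhibits topoisomerase II, was compared with DMSO on 2 arrays each, and the same was done on 3 arrays each in glutamatergic neurons taken from the cortex at E16.5. No genotype is given for those 4 treated groups. The treatment description, 50 µM ICRF-193 or DMSO renewed each 24 h between TN days 2 and 5, stands on every sample, and the sources used here do not say over which days the cortical neurons were treated. The labels do not say whether replicates came from separate cultures or animals, so p-values here reflect array-to-array spread only, which may be technical.

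The Top2b signal was below that of the wild-type arrays on every knockout array: 5.79 to 7.11 against 7.52 to 7.96 in ES cells, 6.77 to 6.89 against 9.10 to 9.17 in NP cells, 8.94 to 8.99 against 11.35 to 11.40 at TN day 2 and 8.68 to 9.04 against 11.15 to 11.32 at TN day 6. Whether the probe set lies in the deleted part is not given in the sources used here. Arrays of a group correlated across genes at 0.984 to 0.996, apart from the knockout ES pair at 0.974, whose mean signal over 6 pluripotency markers was 10.12 on one array and 11.14 on the other. Glutamatergic neuron markers averaged 9.81 to 9.91 on the cortical DMSO arrays, against 4.67 to 4.73 in wild-type ES cells. Those cortical arrays also carried GABAergic (9.01 to 9.09), astrocyte (7.29 to 7.54) and oligodendrocyte lineage (7.73 to 7.91) marker signal above that of the TN day 5 DMSO arrays (7.39 to 7.51, 5.60 to 5.73 and 6.02 to 6.05). In bulk RNA, fewer cells of a type and less RNA per cell cannot be told apart.

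Promoter sequences are shown for 4 members because the same short motif stands before genes that moved in opposite directions when NP cells became TN day 2 cells. RefSeq promoter windows (GRCm38.p6) were matched by symbol for 43 of the 51 members, and the 250 bases before the start site were searched on both strands for GCGCA followed by any base and GCGC, the core of the site of NRF1, an activator of respiratory-chain genes, and for CCGGAAG, a core of ETS-family sites such as that of GABP. No member held both motifs. The motif is in capitals, and each window is printed 5′ to 3′ on the strand of its gene. The first pair holds the NRF1 letters: Ndufa5 at chr6:24527691-24527940 on the minus strand and Ndufa11 at chr17:56717512-56717761 on the plus strand. The second pair holds the ETS letters: Ndufb7 at chr8:83566508-83566757 on the plus strand and Uqcr11 at chr10:80406822-80407071 on the minus strand.
Ndufa5: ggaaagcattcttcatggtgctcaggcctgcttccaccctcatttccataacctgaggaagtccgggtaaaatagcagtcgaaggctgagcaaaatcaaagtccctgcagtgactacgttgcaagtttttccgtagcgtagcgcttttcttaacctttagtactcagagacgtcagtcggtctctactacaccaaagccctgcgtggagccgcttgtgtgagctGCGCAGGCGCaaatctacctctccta
Ndufa11: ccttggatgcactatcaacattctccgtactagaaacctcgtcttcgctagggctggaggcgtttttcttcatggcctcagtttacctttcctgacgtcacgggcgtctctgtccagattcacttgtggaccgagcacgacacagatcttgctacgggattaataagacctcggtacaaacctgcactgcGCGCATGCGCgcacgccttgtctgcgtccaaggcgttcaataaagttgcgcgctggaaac
Ndufb7: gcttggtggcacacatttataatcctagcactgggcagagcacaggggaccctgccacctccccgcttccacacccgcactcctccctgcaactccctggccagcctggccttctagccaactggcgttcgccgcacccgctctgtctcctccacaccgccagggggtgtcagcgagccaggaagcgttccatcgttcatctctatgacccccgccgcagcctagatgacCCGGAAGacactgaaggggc
Uqcr11: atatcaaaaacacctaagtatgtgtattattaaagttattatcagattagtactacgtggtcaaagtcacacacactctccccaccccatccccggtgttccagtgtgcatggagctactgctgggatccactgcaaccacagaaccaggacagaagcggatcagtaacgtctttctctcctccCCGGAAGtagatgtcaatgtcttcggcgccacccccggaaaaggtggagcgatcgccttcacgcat
All 4 genes were picked after their changes were seen. Ndufa5 and Ndufa11 also lie outside the naming rule given below, and so does Ndufb7 for the step from NP cells to TN day 2. The changes of these genes at that step under the alternative settings are not given. The motif began 26, 60, 20 and 66 bases before the start site in Ndufa5, Ndufa11, Ndufb7 and Uqcr11. From NP cells to TN day 2 the log2 signal rose by 0.97 for Ndufa5, a Q-module accessory subunit, and by 1.03 for Ndufb7, a membrane-arm subunit. It fell by 0.80 for Ndufa11, another membrane-arm subunit, and by 1.23 for Uqcr11, a small subunit of complex III. Ndufa11 and Uqcr11 each had 2 probe sets. Across the 28 arrays the dimmer one correlated with the one used at r = 0.868 for Ndufa11 and 0.905 for Uqcr11. The NRF1 letters stood before 6 of the 43 members with a window (14.0%) and before 4.2% of 27025 genes with a window. The ETS letters stood before 6 of 43 (14.0%) and 7.8%. A gene listed with several start sites was counted once if any of its windows held the letters. Of several such windows the most upstream is printed. For each motif, 3 of its 6 members rose, 2 fell and 1 did not pass the test. These matches describe letters in a window, not bound sites.

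The members had bright probe sets and short genes; signals of different probe sets do not rank transcript levels. The median of their mean log2 signals was 8.67, against 6.82 for all genes, and 45 of the 51 lay above the median of all genes. Their median span from transcript start to end was 7.80 kb, against 17.74 kb for all genes, and 41 of the 51 spans were under 20 kb, against 53.2% of all genes. Ndufaf2 and Ndufs4 were the 2 members over 100 kb.

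The members' patterns across the 12 groups were in part alike and in part opposed. The range of the group means had a median of 1.30 log2 units, lay between 0.42 and 2.70, and exceeded 1 for 38 members. Across the 12 group means, 1275 pairs of members correlated with a median r of 0.37 and from -0.95 to 0.99, with 552 pairs above 0.5 and 449 (35.2%) below 0; the pairs share the same arrays. The cortical DMSO group held the highest mean of 24 members and wild-type ES cells that of 12, while the TN day 5 ICRF-193 group held the lowest mean of 26.

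**Figure D1:**
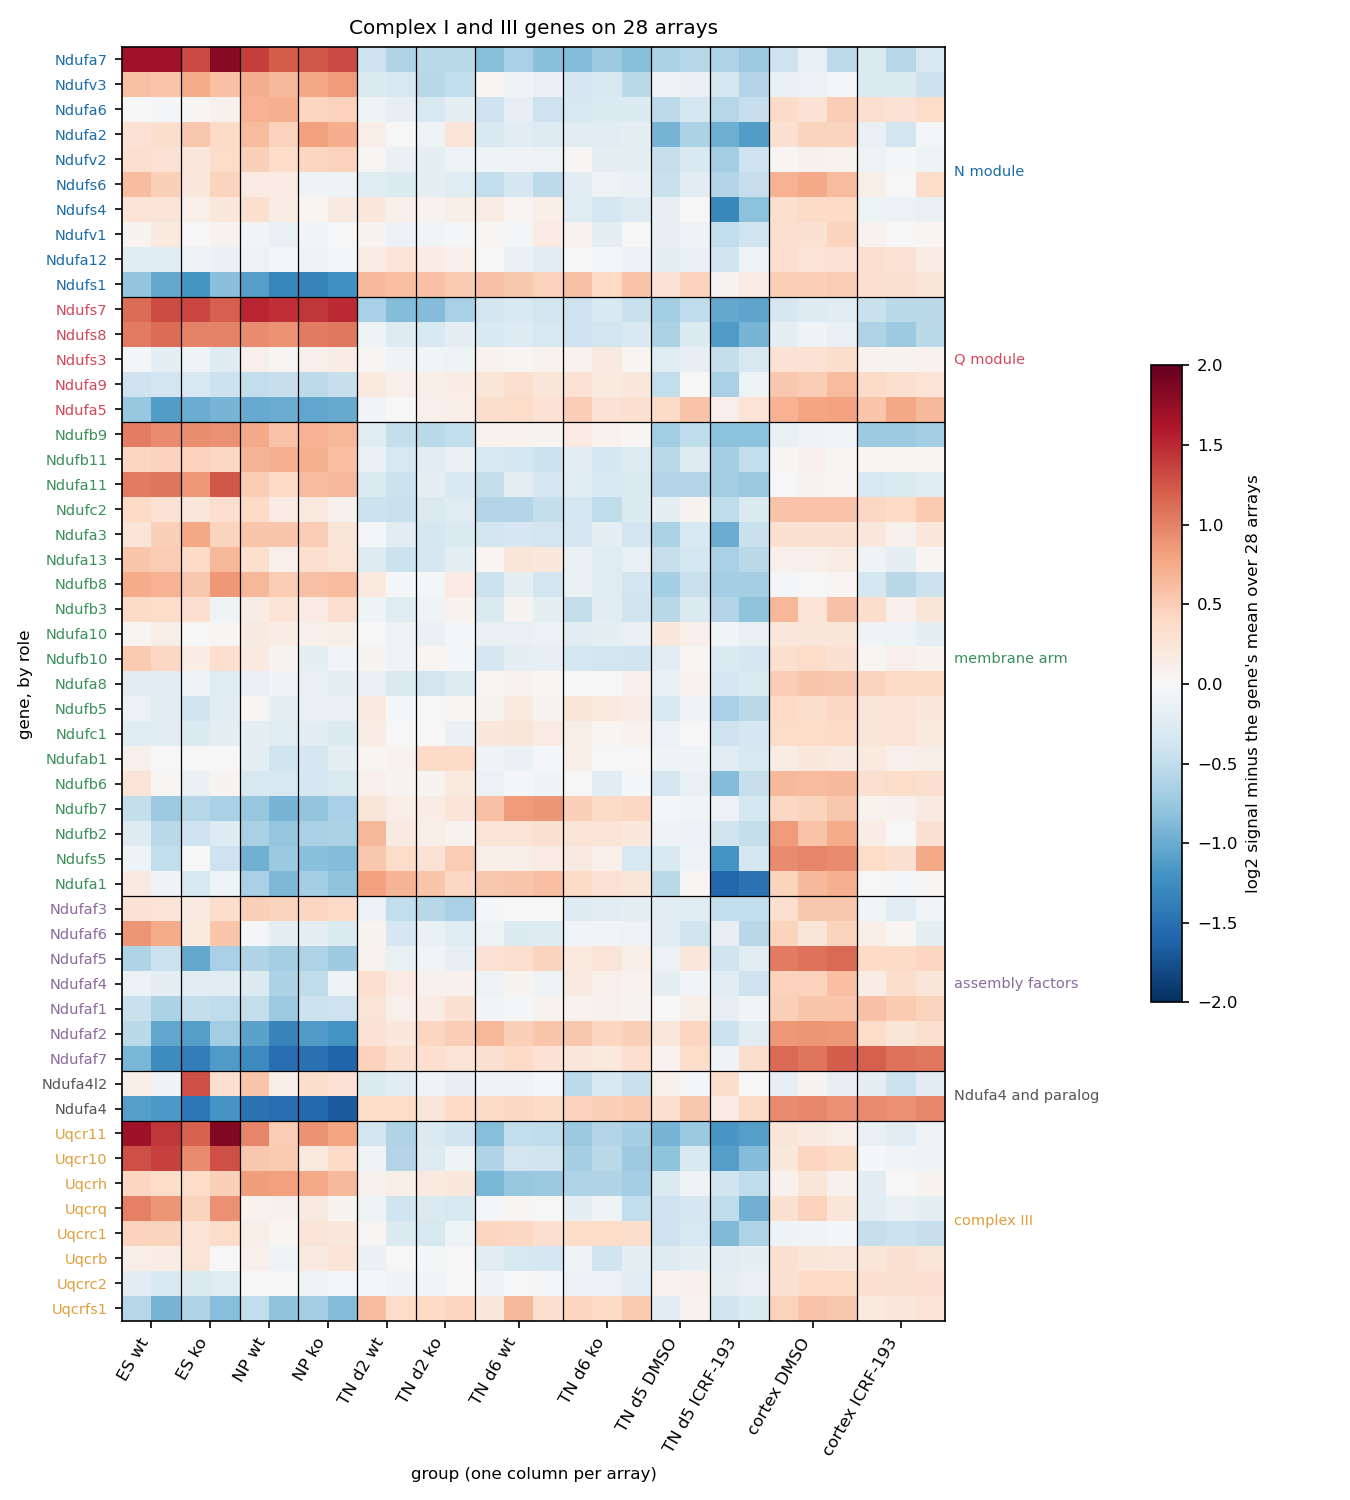
Log2 signal of each of the 51 genes (rows, by role) on each of the 28 arrays (columns, by group), as the difference from the gene's mean over all arrays. Ndufa7, Ndufs7 and Uqcr11 were high in ES and NP cells and low later, Ndufs1, Ndufaf7 and Ndufa4 ran the other way, and the ICRF-193 group at TN day 5 held the lowest mean of 26 genes.

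The 6 widest ranges belonged to Uqcr11 (2.70), Ndufaf7 (2.68), Ndufa4 (2.55), Ndufs7 (2.54), Ndufa7 (2.49) and Uqcr10 (2.32), on the log2 scale. Uqcr11 was highest in wild-type ES cells, at 9.69 and 9.43, and lowest with ICRF-193 at TN day 5, at 6.83 and 6.90. Ndufaf7, a methyltransferase needed for complex I assembly, stood at 6.52 and 6.41 in knockout NP cells and at 9.14, 9.08 and 9.21 in cortical DMSO neurons. Uqcr11 was thus high in stem cells and Ndufaf7 high in cortical neurons. The groups set side by side were each gene's extremes, so a gap between them follows from that choice.

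A gene was called higher or lower when limma's moderated test, adjusted by the Benjamini-Hochberg method over all 19938 genes, gave an adjusted p under 0.05. Statements below that arrays of 2 groups did not overlap describe genes mostly named for the size of their change, and add no support to a call. With 2 or 3 arrays such gaps were common. The groups did not overlap for 19 and 20 of the 51 members in the ES and NP knockout comparisons, where none was called. The share over all genes was not computed. The plot of changes by comparison shows the members beside all genes.

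**Figure D2:**
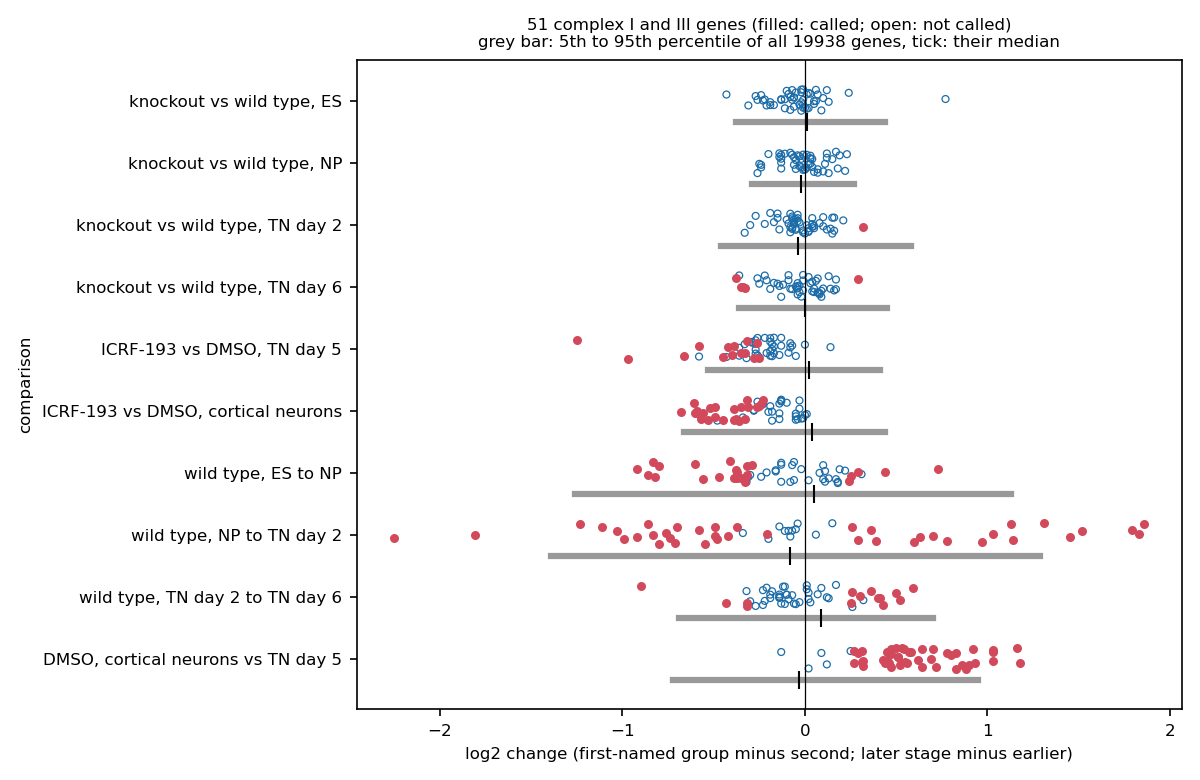
Log2 change of each of the 51 genes (points) in 10 comparisons; filled points passed the test, open points did not, grey bars run from the 5th to the 95th percentile of all genes and ticks mark their median. With ICRF-193 nearly all points lie below 0, from NP to TN day 2 they spread from -2.25 to 1.86, and in cortical against TN day 5 neurons nearly all lie above 0.

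The transition of wild-type NP cells to TN day 2 changed the most members of the 3 stage transitions, in both directions. Of the 51 members, 18 rose and 22 fell, where 21.6% of all genes rose and 26.6% fell (48.2% in either direction). Their median change was -0.11, against -0.08 for all genes. Among the 9969 brighter genes, fitted alone, 39.4% rose and 33.9% fell. The N module had 2 higher and 6 lower of 10, the Q module 2 and 2 of 5, the membrane arm 7 and 9 of 19, the assembly factors 5 and 1 of 7, and complex III 1 and 3 of 8. Pluripotency (5 of 6), progenitor (4 of 6) and cycling-cell (4 of 5) markers fell and all 7 pan-neuronal markers rose over the same step; their part in the result was not tested. The 3 wild-type stage comparisons share arrays with each other and with the knockout comparisons.

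Within the N module, Ndufs1, the largest core subunit, which carries iron-sulfur clusters, read 8.74 and 8.53 in NP cells and 10.49 and 10.44 at TN day 2. It rose 3.56-fold (log2 change 1.83, SE 0.11, limma adjusted p = 1.6e-11). Ndufa7, an accessory subunit of the same module, read 9.70 and 9.53 and then 7.90 and 7.72. It fell 3.50-fold (-1.81, SE 0.14, limma adjusted p = 5.7e-10), so genes of 1 module moved apart with no overlap between the stages. Ndufv1, the core subunit that binds NADH, read 9.67 and 9.58 and then 9.77 and 9.60 and did not pass the test.

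In the Q module, Ndufs7, the core subunit next to the quinone site, had the largest fall of all members. It read 11.67 and 11.60 in NP cells and 9.50 and 9.27 at TN day 2, a 4.76-fold lower signal (-2.25, SE 0.10, limma adjusted p = 1.3e-13). Ndufs8, a core iron-sulfur subunit, read 9.97 and 9.93 and then 8.93 and 8.77, 2.15-fold lower (-1.11, SE 0.10, limma adjusted p = 9.8e-09). The high NP and low TN day 2 arrays were clear of each other for these core genes. Ndufs3, also a core subunit, read 10.55 and 10.47 and then 10.47 and 10.38, and did not pass the test.

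In the membrane arm, Ndufa1, a small X-linked subunit needed for assembly, read 6.77 and 6.52 in NP cells and 8.24 and 8.09 at TN day 2. It rose 2.87-fold (1.52, SE 0.14, limma adjusted p = 7.6e-09). Ndufb9, an accessory subunit of the distal arm, read 9.70 and 9.52 and then 8.70 and 8.46, 2.04-fold lower (-1.03, SE 0.09, limma adjusted p = 3.8e-09). Again the stages did not overlap and the directions were opposite.

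Among the assembly factors, Ndufaf7 read 6.73 and 6.49 in NP cells and 8.46 and 8.32 at TN day 2 (log2 change 1.79, SE 0.14, limma adjusted p = 5.1e-10). Ndufaf2, a chaperone that is a paralog of the subunit Ndufa12, read 6.83 and 6.56 and then 8.18 and 8.11 (1.45, SE 0.14, limma adjusted p = 1.4e-08). Both were higher on each TN day 2 array. Ndufa4, named as a complex I gene but found with complex IV, had the largest rise: 9.36 and 9.31 became 11.20 and 11.20, 3.64-fold higher (1.86, SE 0.10, limma adjusted p = 1.1e-12).

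In complex III, Uqcrfs1, the Rieske iron-sulfur protein, read 7.47 and 7.15 in NP cells and 8.57 and 8.33 at TN day 2 (log2 change 1.14, SE 0.15, limma adjusted p = 9.3e-07). Uqcr11 read 8.97 and 8.50 and then 7.62 and 7.40 (-1.23, SE 0.17, limma adjusted p = 3e-06). The catalytic subunit was thus high at TN day 2 and the small subunit low. Uqcrc2, a core protein, read 11.28 on both NP arrays and 11.25 and 11.21 later, and Uqcrc1, the other core protein, 10.63 and 10.54 and then 10.53 and 10.24; neither passed the test.

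**Figure D3:**
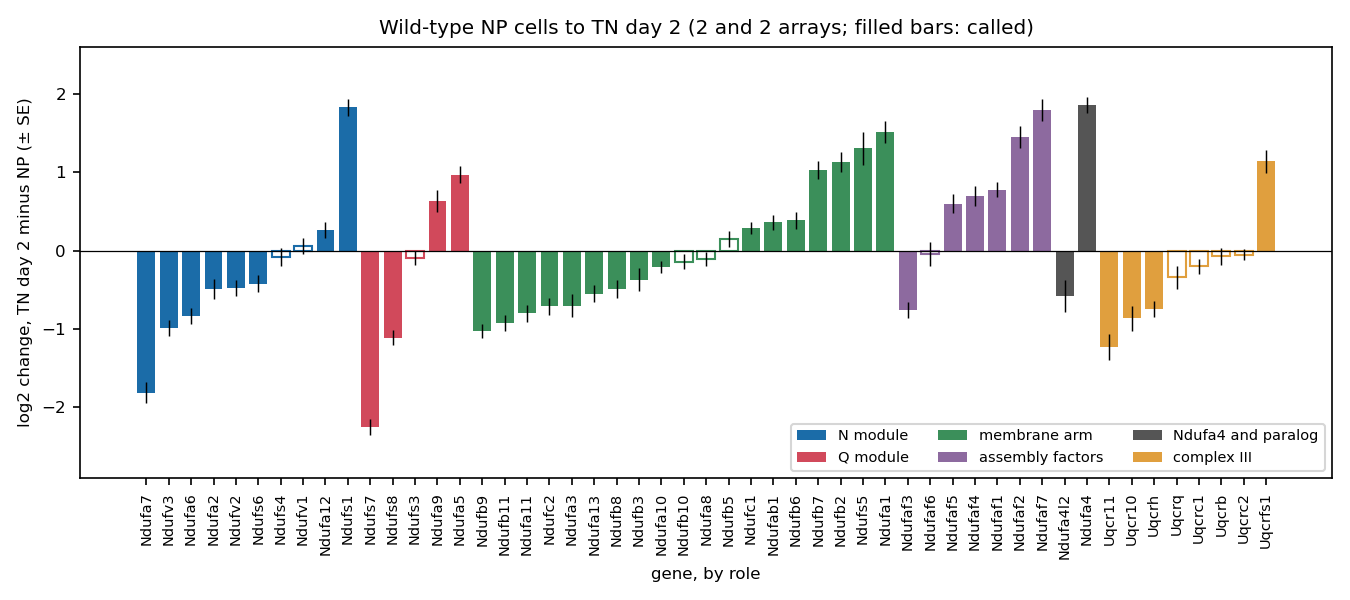
Log2 change from wild-type NP cells to TN day 2 for the 51 genes, grouped by role, with 1 SE from the fit; filled bars passed the test and open bars did not. Within the N module, the Q module, the membrane arm and complex III, bars point both ways, from Ndufs7 at -2.25 to Ndufs1 at 1.83; Ndufa4, drawn apart with its paralog, is at 1.86.

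The related lists split too at this step, where 21.6% of all genes rose and 26.6% fell. Complex V had 7 higher and 4 lower of 16 and complex IV 4 and 7 of 16. Assembly factors of complexes I and III outside the prefix had 7 and 4 of 14, with Uqcc2 lower (-3.43, SE 0.11, limma adjusted p = 3.3e-15) and Uqcc3 higher (1.72, SE 0.10, limma adjusted p = 3.3e-12), both named for complex III assembly. ND3, a complex I subunit encoded in mitochondrial DNA, rose by 1.02 (SE 0.11, limma adjusted p = 7.8e-08). Glycolysis genes and transporters mostly fell, 13 of 18 with 3 higher and a median of -1.70, among them the lactate exporter Slc16a3 (-4.06, SE 0.18, limma adjusted p = 9.1e-14). Cytosolic ribosomal protein genes, also short and bright, had 9 higher and 32 lower of 57.

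From ES to NP cells, 5 members rose and 18 fell. With 46.3% of all genes called in either direction (21.7% higher and 24.5% lower), the members' share of 45.1% was near the background; after quantile normalization 13 rose and 13 fell. Without replicate 1 of wild-type ES cells 12 were called, and without replicate 2 of wild-type NP cells 14. The median change was -0.13, against 0.05 for all genes.

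Complex III had 2 higher and 4 lower of 8 at this step. Uqcrq, a small subunit near the quinone site, read 9.68 and 9.55 in ES cells and 8.75 and 8.76 in NP cells (log2 change -0.86, SE 0.15, limma adjusted p = 8.6e-05). Uqcr10, another small subunit, read 9.55 and 9.62 and then 8.80 and 8.77 (-0.80, SE 0.16, limma adjusted p = 0.00033), and Uqcr11 fell by 0.82 (limma adjusted p = 0.00045). These 3 small subunits were lower on each NP array, while Uqcrh, the hinge protein that contacts cytochrome c1, was higher: 10.21 and 10.16 became 10.63 and 10.61 (0.44, SE 0.10, limma adjusted p = 0.00123). Uqcrc2 rose by 0.25 (limma adjusted p = 0.00747).

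In complex I, Ndufa6, an N-module accessory subunit, read 8.22 and 8.19 in ES cells and 8.92 and 8.93 in NP cells (log2 change 0.73, SE 0.10, limma adjusted p = 2.5e-06). Ndufaf6, an assembly factor, read 7.08 and 6.95 and then 6.18 and 6.00 (-0.92, SE 0.15, limma adjusted p = 2.5e-05). Ndufa1 read 7.60 and 7.34 and then 6.77 and 6.52 (-0.83, SE 0.14, limma adjusted p = 5.2e-05), so it was low in NP cells between higher values in ES cells and at TN day 2. Ndufs7 rose by 0.29 (limma adjusted p = 0.0236) and Ndufb11, a membrane-arm subunit, by 0.24 (limma adjusted p = 0.0443); neither call held in a fit to the compared arrays alone, nor did that of Uqcrc2. The Ndufb11 call was lost on leaving out any of the 4 arrays, that of Ndufs7 without replicate 1 of either group and that of Uqcrc2 without replicate 2 of the ES cells. Cyc1 and ND3, the only measured complex I or III subunit genes on the list without the prefix, both fell, by 0.58 and 0.45 (limma adjusted p = 3.5e-05 and 0.00208). All 6 pluripotency markers fell and 4 of 6 progenitor markers rose over the same step, and their part was not tested.

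From TN day 2 to TN day 6, 10 members rose and 4 fell, where 28.5% of all genes were called (16.7% higher and 11.9% lower); the members' share, 27.5%, was near the background. Without replicate 2 of the TN day 2 wild-type cells 8 were called. Uqcrh fell most: 9.87 and 9.90 at TN day 2 became 8.88, 9.03 and 9.04 at TN day 6 (log2 change -0.90, SE 0.09, limma adjusted p = 1.9e-07). Uqcrc1 went up, from 10.53 and 10.24 to 10.94, 10.92 and 10.85 (0.52, SE 0.09, limma adjusted p = 0.00018), so 2 complex III genes moved in opposite directions with no overlap between days.

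In complex I, Ndufb7 read 9.16 and 9.06 at TN day 2 and 9.51, 9.78 and 9.80 at TN day 6 (log2 change 0.59, SE 0.10, limma adjusted p = 0.00014). Ndufa13, a membrane-arm subunit also known as GRIM-19, read 7.78 and 7.61 and then 8.07, 8.27 and 8.24 (0.50, SE 0.10, limma adjusted p = 0.00061). Ndufb9 rose by 0.43 (limma adjusted p = 0.00042) and Ndufs7 by 0.41 (limma adjusted p = 0.00169), both having fallen at the step before; the Ndufs7 call was lost without replicate 2 at TN day 2. The other falls were Ndufb8 of the membrane arm (-0.43, limma adjusted p = 0.00639; not called without replicate 1 at TN day 2) and the N-module genes Ndufa2 and Ndufa12 (-0.32 each, limma adjusted p = 0.044 and 0.0111); the Ndufa2 call was lost on leaving out any of the 5 arrays and the Ndufa12 call without replicate 2 at TN day 2 or replicate 3 at TN day 6. Mesenchymal markers differed between the TN day 2 arrays themselves, at 7.95 and 9.92, and stood at 7.28 to 7.34 at TN day 6 (4 of 5 fell). Cycling-cell markers were at 8.88 to 9.12 at TN day 2 and 6.12 to 6.40 at TN day 6 (all 5 fell), progenitor markers at 9.14 to 10.03 and then 8.32 to 8.51 (5 of 6 fell) and pan-neuronal markers at 10.96 to 11.04 and then 11.37 to 11.41 (4 of 7 rose). The part of these cell types was not tested.

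ICRF-193 was followed by lower signal for nearly every member in both cell sources. At TN day 5, 14 members fell and none rose, where 6.37% of all genes fell and 2.51% rose (8.89% in either direction), and in cortical neurons 24 fell and none rose, where 13.7% of all genes fell and 9.72% rose (23.4%). The change was below 0 for 50 and 49 of the 51 members, with a median of -0.26 in each source against 0.02 and 0.04 for all genes. Brighter genes as a whole leaned the same way: of the 9969 genes at or above the median signal, fitted and adjusted alone and so not on the scale of the shares above, 15.1% fell at TN day 5 and 24.3% in cortical neurons, with medians of -0.10 and -0.07. Centring each array on its median moved the median of all cortical changes to -0.07 and that of the members to -0.37.

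The count at TN day 5 rested on few arrays. It was 2 without replicate 2 of the DMSO cells, 5 without replicate 1 of the ICRF-193 cells and 2 in a fit to those 4 arrays alone, and 9 after quantile normalization. In cortical neurons the count was 18 to 21 on leaving out any 1 array. With ICRF-193 at TN day 5, the mean of the 5 cycling-cell markers was 5.55 to 5.94 against 6.69 to 7.44 with DMSO (4 fell) and that of the 6 progenitor markers 6.99 to 7.14 against 8.06 to 8.80 (3 fell). In cortical neurons with ICRF-193, astrocyte markers were at 5.80 to 5.85 (4 of 5 fell), oligodendrocyte lineage markers at 5.97 to 6.02 (4 of 5 fell) and cycling-cell markers at 5.80 to 5.87 against 7.73 to 7.81 (all 5 fell). Microglial markers rose, at 7.22 to 7.40 against 6.51 to 6.61 (5 of 5). Progenitor markers were at 8.15 to 8.31 against 9.05 to 9.09 (3 of 6 fell). Pan-neuronal markers had 1 higher and 4 lower of 7, at 10.85 to 10.91 against 11.37 to 11.43. Glutamatergic markers had 2 higher and 1 lower of 5, at 10.05 to 10.09 against 9.81 to 9.91. GABAergic markers had 1 higher and none lower of 5, at 9.23 to 9.34 against 9.01 to 9.09. The part of these cell types in the members' change was not tested.

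By role, the falls at TN day 5 and in cortical neurons numbered 3 and 5 of 10 in the N module, 2 and 3 of 5 in the Q module, 6 and 9 of 19 in the membrane arm, 1 and 4 of 7 among assembly factors and 2 and 3 of 8 in complex III. Neither Ndufa4 nor its paralog Ndufa4l2 passed the test in either source. The comparisons share no array. Of the members, 10 fell in both, which is 71.4% of those called at TN day 5 and 41.7% of those called in cortical neurons. A change below 0 in both was seen for 48 members. The matching shares over all genes were not computed, so these counts do not show overlap particular to the members. Across the 51 members the changes in the 2 sources correlated with r = 0.50, and across all genes with r = 0.54, as descriptions over genes that are not independent.

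**Figure D4:**
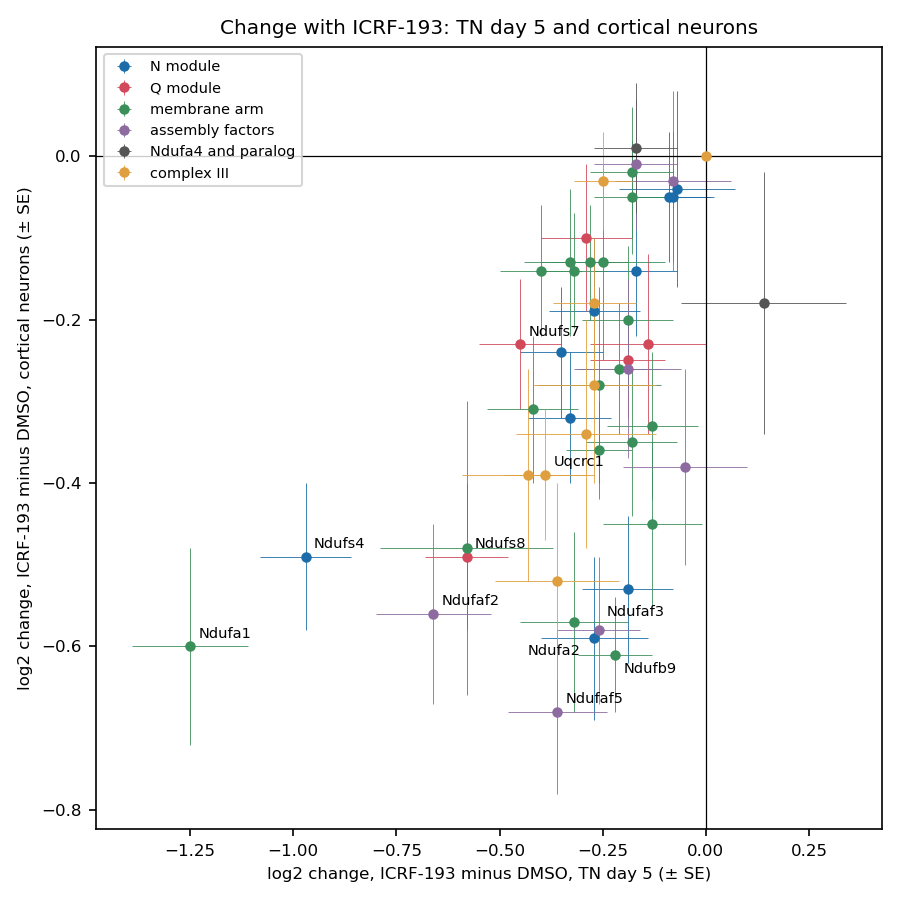
Log2 change with ICRF-193 against DMSO at TN day 5 (horizontal) and in cortical neurons (vertical) for the 51 genes, coloured by role, with 1 SE from the fit. Of the points, 48 lie below 0 on both axes; Ndufa1 and Ndufs4 lie farthest left, at -1.25 and -0.97, and Ndufaf5 lowest, at -0.68.

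Ndufa1 had the largest fall at TN day 5. It read 6.87 and 7.43 on the DMSO arrays and 5.85 and 5.94 with ICRF-193, 2.38-fold lower (log2 change -1.25, SE 0.14, limma adjusted p = 2.5e-06). In cortical neurons it read 7.86, 8.06 and 8.12 on the DMSO arrays and 7.42, 7.37 and 7.44 with ICRF-193, 1.52-fold lower (-0.60, SE 0.12, limma adjusted p = 0.00058). The treated arrays lay below all control arrays in each source. Ndufa1 was the member whose change differed between the sources by an interaction test (difference 0.65, SE 0.18, limma adjusted p = 0.0443), where 4.37% of all genes did (1.69% with a higher value in cortical neurons and 2.68% with a lower one). That call was lost in 8 of the 10 fits that leave out 1 array, with a difference of 0.37 without replicate 2 of the TN day 5 DMSO cells; after quantile normalization 3 members were called, 2 of them higher in cortical neurons.

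In the N module, Ndufs4, an accessory subunit that helps to dock the module, read 9.78 and 9.95 on the DMSO arrays at TN day 5 and 8.66 and 9.13 with ICRF-193, 1.96-fold lower (log2 change -0.97, SE 0.11, limma adjusted p = 5e-06). In cortical neurons it read 10.26, 10.33 and 10.35 and then 9.85, 9.83 and 9.80 (-0.49, SE 0.09, limma adjusted p = 0.00062). Ndufs4 and Ndufa1 kept their calls in both sources under every setting and every left-out array. Ndufv1 fell by 0.33 at TN day 5 (limma adjusted p = 0.0348) and by 0.32 in cortical neurons (limma adjusted p = 0.00565); the first call was lost without replicate 2 of the DMSO cells or replicate 1 of the ICRF-193 cells. Ndufa2, an accessory subunit, read 8.74, 8.88 and 8.88 in cortical DMSO neurons and 8.28, 8.05 and 8.39 with ICRF-193 (-0.59, SE 0.10, limma adjusted p = 0.0002).

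In the Q module, Ndufs8 read 8.40 and 8.75 on the DMSO arrays at TN day 5 and 7.90 and 8.10 with ICRF-193 (log2 change -0.58, SE 0.10, limma adjusted p = 0.00096). In cortical neurons it read 8.83, 8.94 and 8.89 and then 8.42, 8.30 and 8.49 (-0.49, SE 0.09, limma adjusted p = 0.00023). Treated and control arrays did not overlap in either source. Ndufs7 read 9.46 and 9.63 and then 9.11 and 9.08 at TN day 5 (-0.45, SE 0.10, limma adjusted p = 0.00679), and fell by 0.23 in cortical neurons (limma adjusted p = 0.0456), where leaving out any 1 array ended the call. Without replicate 2 of the TN day 5 DMSO cells the changes there were -0.40 for Ndufs8 and -0.36 for Ndufs7, and neither was called. Ndufs3 fell by 0.25 in cortical neurons (limma adjusted p = 0.0151), a call lost without replicate 3 of the DMSO neurons.

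Among the assembly factors, Ndufaf2 read 8.12 and 8.33 on the DMSO arrays at TN day 5 and 7.46 and 7.67 with ICRF-193 (log2 change -0.66, SE 0.14, limma adjusted p = 0.00434); the change was -0.55 and not called without replicate 2 of the DMSO cells or replicate 1 of the ICRF-193 cells. In cortical neurons it read 8.77, 8.78 and 8.76 and then 8.27, 8.14 and 8.22 (-0.56, SE 0.11, limma adjusted p = 0.00103). Ndufaf5, which hydroxylates Ndufs7 during assembly, had the largest fall in cortical neurons: 7.42, 7.48 and 7.52 became 6.79, 6.77 and 6.82 (-0.68, SE 0.10, limma adjusted p = 3.3e-05). Ndufaf3, an early-acting factor, read 8.65, 8.85 and 8.86 and then 8.26, 8.09 and 8.26 (-0.58, SE 0.09, limma adjusted p = 2.7e-05). For these 3 factors every treated cortical array was below every control array.

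In the membrane arm, Ndufb9 read 8.80, 8.87 and 8.89 in cortical DMSO neurons and 8.22, 8.22 and 8.27 with ICRF-193, 1.53-fold lower (log2 change -0.61, SE 0.07, limma adjusted p = 2.5e-06). In complex III, Uqcrc1 read 10.10 and 10.18 and then 9.62 and 9.89 at TN day 5 (-0.39, SE 0.10, limma adjusted p = 0.0185), and 10.42, 10.45 and 10.47 and then 10.05, 10.08 and 10.04 in cortical neurons (-0.39, SE 0.08, limma adjusted p = 0.00146). Treated arrays were below control arrays for these genes. The TN day 5 call of Uqcrc1 was lost without replicate 2 of the DMSO cells or replicate 1 of the ICRF-193 cells. Uqcrc2 fell by 0.25 at TN day 5 (limma adjusted p = 0.038), a call lost on leaving out any of the 4 arrays.

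**Figure D5:**
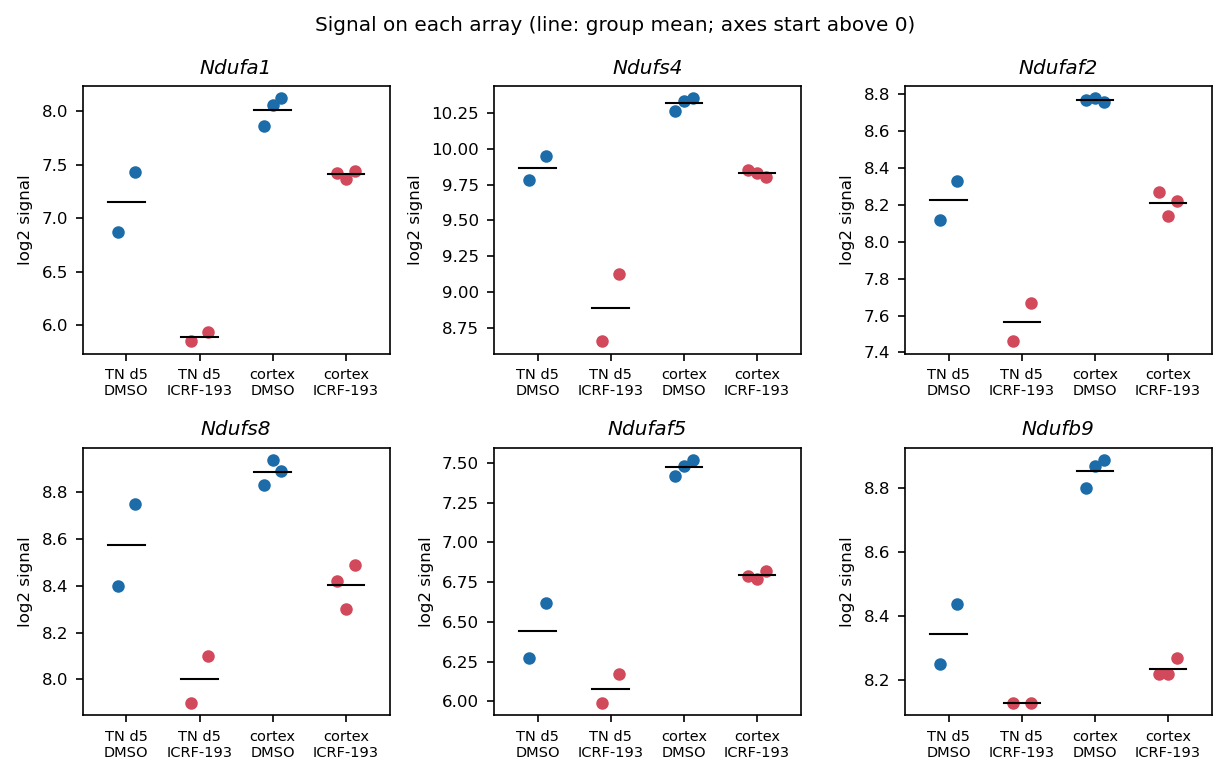
Log2 signal of 6 genes on each array of the DMSO (blue) and ICRF-193 (red) groups at TN day 5 and in cortical neurons, with lines at group means and axes that start above 0. For Ndufa1 the TN day 5 ICRF-193 arrays sit at 5.85 and 5.94, below every other array shown, and for all 6 genes treated arrays lie below the controls of their source.

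The other mitochondrial lists are read beside the 6.37% of all genes that fell at TN day 5 and the 13.7% in cortical neurons. With ICRF-193 at TN day 5 and in cortical neurons, complex II had 2 and 2 of 8 lower, complex V 3 and 6 of 16, the tricarboxylic acid cycle 6 and 3 of 15 and the assembly list outside the prefix 4 and 6 of 14, with 1 of the latter higher in cortical neurons. Complex IV had 1 of 16 lower at TN day 5 and 3 lower and 2 higher in cortical neurons, near those shares. Regulators of mitochondrial biogenesis had 4 of 14 lower and none higher in each source, with medians of -0.25 and -0.14. The largest fall among them was that of Ppargc1a, the coactivator PGC-1α that promotes mitochondrial biogenesis. Its signal fell by 2.17 at TN day 5 (SE 0.13, limma adjusted p = 1.5e-10) and by 1.41 in cortical neurons (SE 0.11, limma adjusted p = 1.5e-09). The falls were not limited to mitochondria, since glycolysis had 6 and 8 of 18 lower and 1 higher at TN day 5, led by the aldolase gene Aldoc (-2.17 and -2.42). Ribosomal protein genes, short and bright like the members, had 4 and 1 of 57 lower and 1 higher in each source.

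The response was also set beside gene length. Over the 51 members, Spearman's rho between span and the ICRF-193 change was 0.04 at TN day 5 and 0.14 in cortical neurons, while over 19856 genes it was -0.19 in both. The median change of the 10 members of 20 kb or more was -0.25 at TN day 5 and -0.29 in cortical neurons, and that of the 41 shorter members -0.26 in both. The long genes Ndufaf2 and Ndufs4 were among the larger falls and so was Ndufa1, a gene of 3651 bases.

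Cortical neurons carried more signal than TN day 5 cells for most members when both had received DMSO. Of the 51 members, 46 were higher and none lower, where 24.4% of all genes were higher and 20.4% lower (44.8%). The median difference was 0.53, against -0.03 for all genes and 0.16 for the brighter ones, of which 40.5% were higher and 17.2% lower when fitted alone. Centring arrays on their medians moved the median of all genes to 0.18 and that of the members to 0.75, and quantile normalization the members' to 0.43. These arrays are also the controls of the ICRF-193 comparisons, and the cell source and the experiment cannot be told apart.

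By role, 7 of 10 N-module, all 5 Q-module, 18 of 19 membrane-arm, all 7 assembly and all 8 complex III genes were higher in cortical neurons, and 1 of the pair Ndufa4 and Ndufa4l2. Ndufa2 read 7.50 and 7.80 at TN day 5 and 8.74, 8.88 and 8.88 in cortical neurons, 2.26-fold higher (log2 difference 1.18, SE 0.12, limma adjusted p = 5.5e-08). Ndufs5, a membrane-arm subunit facing the intermembrane space, read 6.37 and 6.58 and then 7.63, 7.66 and 7.62 (1.16, SE 0.20, limma adjusted p = 6.7e-05). Every cortical array was above every TN day 5 array for these genes. Ndufs6, a zinc-binding N-module subunit, Ndufaf5 and Uqcr11 were each 1.03 higher (limma adjusted p = 1e-07, 2.8e-07 and 2.2e-05).

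The other lists are read beside the 24.4% of all genes that were higher in cortical neurons. Complex II had 4 of 8 genes higher there, complex IV 10 higher and 1 lower of 16 and complex V 14 of 16. The tricarboxylic acid cycle had 10 of 15 higher, glycolysis 11 of 18 and ribosomal proteins 34 higher and 1 lower of 57. The difference was thus not limited to the respiratory chain. Mesenchymal markers were at 8.10 to 9.06 at TN day 5 and 6.28 to 6.40 in cortical neurons, with 4 of 5 lower there. Their part, and that of the glial markers above, was not tested.

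With the Top2β knockout, the share of members called was near or below that of all genes. In ES cells and in NP cells limma called none, with 4 and 3 members at an unadjusted p under 0.05, where 0.351% and 0.627% of all genes were called. The members' median change was -0.03 and -0.01, against 0.01 and -0.02 for all genes. The count in ES cells was not stable to leaving out replicate 2 of the knockout cells, which leaves 1 knockout array. Top2b read 7.11 on that remaining array and 5.79 on replicate 2. Ndufa4l2, the hypoxia-induced paralog of Ndufa4, read 5.91 and 5.71 in wild-type ES cells and, with the knockout, 7.05 and 6.10. Its change was 0.77 (SE 0.20, limma adjusted p = 0.0955) with all arrays and 1.24 without replicate 2 of the knockout cells. Replicate 1 of the knockout cells stood above the other 3 arrays.

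At TN day 2, 1 member (2.0%) was called, where 11.5% of all genes were (5.49% higher and 5.97% lower). It was Ndufab1, the mitochondrial acyl carrier protein, at 9.29 and 9.32 in wild-type cells and 9.63 on both knockout arrays (log2 change 0.32, SE 0.09, limma adjusted p = 0.0179). The call was lost without replicate 1 of the wild-type cells or without either knockout replicate, and after median centring, when 1 other member was called lower and none higher. Without replicate 2 of the wild-type cells 3 members were called. Mesenchymal markers were higher in these knockout cells (3 of 5, at 10.33 to 10.82 against 7.95 to 9.92) and pan-neuronal markers lower (5 of 7), and their part was not tested.

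At TN day 6, 1 member was higher and 4 were lower in knockout cells. The members' share, 9.8%, was near the 10.2% of all genes that were called (5.38% higher and 4.80% lower). Ndufs4 read 10.09, 9.98 and 10.07 in wild-type cells and 9.70, 9.60 and 9.69 without Top2β (log2 change -0.38, SE 0.09, limma adjusted p = 0.0086). Ndufv3, an N-module accessory subunit, read 8.39, 8.28 and 8.22 and then 8.01, 8.04 and 7.81 (-0.34, SE 0.08, limma adjusted p = 0.00649). Knockout arrays were below wild-type arrays for both genes. Ndufb7 fell by 0.35 and Ndufa13 by 0.33 (limma adjusted p = 0.0132 and 0.0184), and the higher gene, Ndufs6, changed by 0.29 (limma adjusted p = 0.0496).

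Each of these 5 calls was lost on leaving out 1 array or another, that of Ndufs4 without replicate 2 and that of Ndufv3 without replicate 3 of the knockout cells. The count was 1 without replicate 2 of the knockout cells, 2 without replicate 3 of the wild-type cells, and 3 without replicate 2 of the wild-type or replicate 3 of the knockout cells. After quantile normalization none was higher and 4 were lower. Cycling-cell (5 of 5, at 7.26 to 7.82 against 6.12 to 6.40) and progenitor markers (3 of 6) were higher in the knockout cells, and their part was not tested. Limma called no member for a difference of the knockout effect between NP and TN day 2 or between TN day 2 and TN day 6, with 3 members at an unadjusted p under 0.05 in each, where 2.71% and 4.80% of all genes were called; 1 member was called for the first without replicate 2 of the TN day 2 wild-type cells, and 1 for the second in a fit to the compared arrays alone.

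The related lists are read beside the 11.5% of all genes called in the knockout at TN day 2 and the 10.2% at TN day 6. Complex IV had 1 higher and 1 lower of 16 at TN day 2, near that share, and 2 and 1 at TN day 6. Glycolysis had 5 of 18 genes higher at TN day 2 and 7 of 18 at TN day 6, with none lower. Of all genes, 5.49% and 5.38% were higher on those days. Regulators of mitochondrial biogenesis had 1 higher and none lower of 14 at TN day 2. At TN day 6 they had 1 higher and 1 lower, with a median change of 0.06. The lower gene was Ppargc1a, which fell by 1.09 (SE 0.11, limma adjusted p = 2.4e-07).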

How the data were processed

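Each of the 28 arrays had 1 column of log2 expression values in the table deposited by the authors, for 35556 probe sets (the submitters' processing notes name oligo 1.14.0). Base 2 was inferred from the range, 1.96 to 13.99, and the background correction, summarization and normalization behind the values were not given in the sources used here. No column was left unmapped. Array medians were 6.12 to 6.43, and the number of arrays limits the precision.

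Of the probe sets, 21789 carried 1 symbol, 1621 several and 12146 none; the first were used. Of the members, 7 had more than 1 probe set; probe sets naming Ndufs5 with its pseudogene, or Ndufb4 with its copy Ndufb4b, carried several symbols and were left out, so Ndufb4 is not among the members. With limma 3.58.1 under R 4.3.3, 1 linear model with a mean for each of the 12 groups covered every array (16 residual and 4.87 prior degrees of freedom), with two-sided moderated tests and Benjamini-Hochberg adjustment over 19938 genes. The fit was tested on simulated data with independent normal noise in which 200 of 19938 genes were changed. For the knockout in ES, NP, TN day 2 and TN day 6 cells it recovered 40%, 28%, 36% and 51% of log2 changes of 0.5. Changes of 1 were recovered at 87%, 81%, 85% and 93%. For ICRF-193 it recovered 36% and 90% of changes of 0.5 and 1 at TN day 5, and 54% and 94% in cortical neurons. Far more genes were called in the real data for the knockout at TN day 2 (11.5%) and TN day 6 (10.2%). The same held for ICRF-193 at TN day 5 (8.89%) and in cortical neurons (23.4%). The adjusted threshold depends on how many genes change, so these recoveries need not hold for the real comparisons.

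Members and lists were chosen with earlier results of these data known. Named were the 5 called members with the largest rise and fall in each comparison, the 6 widest ranges, members with a called interaction, Ndufa4 and Ndufa4l2, and the core subunits as examples; up to 2 genes per list were named by size. Alternatives were quantile normalization, median centring, only the compared arrays, a replicate block, the mean over probe sets, dim genes left out and each array left out; a crossed block was added after the data were seen.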

Additional observations from a re-analysis of the deposited data

Results flagged for a closer look

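The change of Ndufa1 with ICRF-193 differed between cortical neurons and TN day 5 cells by an interaction test, with a log2 difference of 0.65 (SE 0.18, limma adjusted p = 0.0443): the fall was 1.25 at TN day 5 and 0.60 in cortical neurons. The adjusted p lay between 0.00177 and 0.3 over the settings and left-out arrays. Groups of 2 or 3 arrays are too small for a test of single outlying arrays.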

How the results depend on the processing

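No named call changed direction under any setting run; medians near 0, such as that of the knockout in NP cells (-0.01, and 0.02 after median centring), did change sign. Of the 62 single-gene calls named, 40 held under every setting and left-out array; in 12 of the 62 the call was lost in fits to only the compared arrays, in 4 after quantile normalization, in 3 after median centring and in 13 of 57 with a replicate block. Fits to the compared arrays alone called 2 members for ICRF-193 at TN day 5 in place of 14, 14 from ES to NP in place of 23, 0 for the knockout at TN day 2 in place of 1, 1 for the knockout difference between TN day 6 and TN day 2 in place of 0, and 0 for the ICRF-193 difference in place of 1. Quantile normalization called 9 for ICRF-193 at TN day 5 and 3 for the ICRF-193 difference, and median centring 0 for that difference. Leaving out dim genes called 2 for the knockout at TN day 2 and 3 for the ICRF-193 difference. The causes were not tested, beyond the fewer arrays in the first kind of fit.

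With 1 array left out at a time, the counts ran from 0 to 6 for the knockout in ES cells, 0 to 3 at TN day 2 and 1 to 4 at TN day 6, from 2 to 14 and from 18 to 21 for ICRF-193 at TN day 5 and in cortical neurons, from 12 to 22, 36 to 39 and 8 to 12 for the successive wild-type stages, and from 40 to 46 for cortical against TN day 5 cells. They ran from 0 to 1 for the knockout difference between TN day 2 and NP and for the ICRF-193 difference. A lone remaining array was assumed to vary like the other groups, and the shares of all genes called in these fits are not given here.

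The labels do not say whether replicate numbers pair the samples, and the values do not settle it. The deviations of same-numbered arrays correlated from -0.23 to 0.379, the highest for ICRF-193 at TN day 5 and the next, 0.32, from ES to NP. With 2 arrays in each group, both replicates give the same correlation by construction. In the comparisons with 3 pairs none exceeded 0.071. With the replicate number as a block the counts were 0 in ES cells, 0 in NP cells, 0 at TN day 2 and 4 at TN day 6 for the knockout, 9 and 23 for ICRF-193, 18, 38 and 6 for the wild-type stages and 0 for the ICRF-193 difference; cortical against TN day 5 cells were separate experiments and were not blocked. Crossed pairing of the NP arrays, chosen after seeing the data, called 0 members.

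The precision is limited by 2 or 3 arrays per group, the spread is pooled over all 12 groups, and a p that misses the threshold does not show that values were alike.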
